A study of Mus musculus with 8 samples.

Results

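The genes described here encode the nuclear subunits of the mitochondrial oxidative phosphorylation system, together with a few rows that share their naming. They were taken from the count table by symbol: rows that begin with Nduf followed by a, b, c, s or v, the genes Sdha to Sdhd, rows that begin with Uqcr, rows that begin with Cox and a digit from 4 to 8, and rows that begin with Atp5, leaving out Cox6a2. The rule found 89 of 23284 rows. Of these, 80 encode subunits: 36 of complex I, 4 of complex II, 8 of complex III, 17 of complex IV and 15 of complex V. Another 5 are complex I assembly factors (Ndufaf1 to Ndufaf4 and Atp5sl) and 4 are other genes. Mitochondrially encoded subunits were not analysed here.

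The study sorted hematopoietic stem and progenitor cells from the bone marrow of Hdc-GFP mice on a C57BL/6 background, in which green fluorescent protein reports the histidine decarboxylase gene Hdc. Cells of the LSK phenotype (negative for lineage markers, positive for Sca-1 and c-Kit) were divided by reporter brightness into Hdc-GFPhi and Hdc-GFPlo cells, and RNA from 2000 cells per library was amplified before sequencing. Each group has 4 libraries, all 8 carry the same reporter, and no treatment is named, so the groups are set apart by the sort. The labels name one Hdc-GFPhi library's cells (replicate 4) Hdc-GFP+ LSK cells, and they do not say which libraries came from separate mice, so p-values measure the spread between these libraries, which may be technical.

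Oxidative phosphorylation couples the oxidation of NADH and succinate to the synthesis of ATP. Complexes I and II pass electrons to coenzyme Q, complex III passes them on to cytochrome c, complex IV reduces oxygen, and complex V, the ATP synthase, uses the proton gradient that complexes I, III and IV build. Hematopoietic stem cells are known for relying largely on glycolysis, with greater use of oxidative phosphorylation as cells commit.

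The libraries held between 16726179 and 23051277 counts. Of the 6 genes listed for the LSK gate, Kit was at 1460 ± 110 CPM (counts scaled to a common library size with edgeR's trimmed-mean factors; SD, n = 4) in Hdc-GFPhi cells and 1195 ± 315 in Hdc-GFPlo cells, and Ly6a at 125 ± 19.0 and 119 ± 16.9. On the same list, the log2 fold change of Hdc-GFPhi over Hdc-GFPlo cells was -0.50 for Flt3 and 0.80 for Slamf1 (adjusted p = 0.0965 and 0.185, edgeR). Neither passed the main test, but Flt3 passed in 7 of 21 settings and Slamf1 in 4. Of the lineage genes, Cd8a had no count and Cd3e averaged at most 0.079 CPM in either group, whereas Itgam, a myeloid gene, was at 86.5 ± 19.8 CPM in Hdc-GFPhi cells and 114 ± 26 in Hdc-GFPlo cells. All 10 early lymphoid genes examined passed the test as lower in Hdc-GFPhi cells, and their summed level was 260 ± 79.2 CPM against 1364 ± 313. The part of these lymphoid transcripts in any result below was not tested. In bulk RNA, fewer cells of a type and less RNA per cell cannot be told apart.

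Among the 84 oxidative phosphorylation genes with enough counts for the test, 0 differed between Hdc-GFPhi and Hdc-GFPlo cells at an adjusted p under 0.05 (edgeR's quasi-likelihood test, Benjamini-Hochberg adjustment over all 13300 tested genes). The background was 0.947% of all tested genes, or 126 genes. DESeq2 and limma also called 0 of the 84. A single gene, Atp5f1, had an unadjusted p under 0.05, where the background was 10.9% of all genes, and the smallest adjusted p of any of the 84 was 0.329. The groups did not overlap for Atp5f1 either, and overlapped for the other 83, against 6.92% of all tested genes without overlap. The remaining 5 rows were not tested: Ndufs5, Cox7b2, Cox8c and Ndufa4l2 had no count in any library, and Cox8b had 4 counts in all.

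The estimates were small and mostly below 0. The estimate lay on the side of lower levels in Hdc-GFPhi cells for 71 of the 84 genes (84.5%, against 50.1% of all tested genes), and the median log2 fold change was -0.09, against 0.00 over all tested genes. Most of the 84 have short transcripts, and the shares among other genes of like length are given below. With limma, which gives less weight to more variable libraries, the median was -0.02 and 53 estimates were below 0. The 95% interval lay within 0.5 either side of 0 on the log2 scale, where 0.5 is 1.41-fold, for 39 genes and within 1 for 81. The direction depended on which libraries were kept: without Hdc-GFPlo replicate 3, 21 of the 84 estimates were below 0 and the median was 0.07. Without Hdc-GFPhi replicate 2, 52 were below 0 and the median was -0.03. Leaving out replicate 4 of Hdc-GFPhi instead gave a median of -0.22. With that library and Hdc-GFPlo replicate 3 both left out, the median was -0.03, with 56 estimates below 0.

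**Figure D1:**
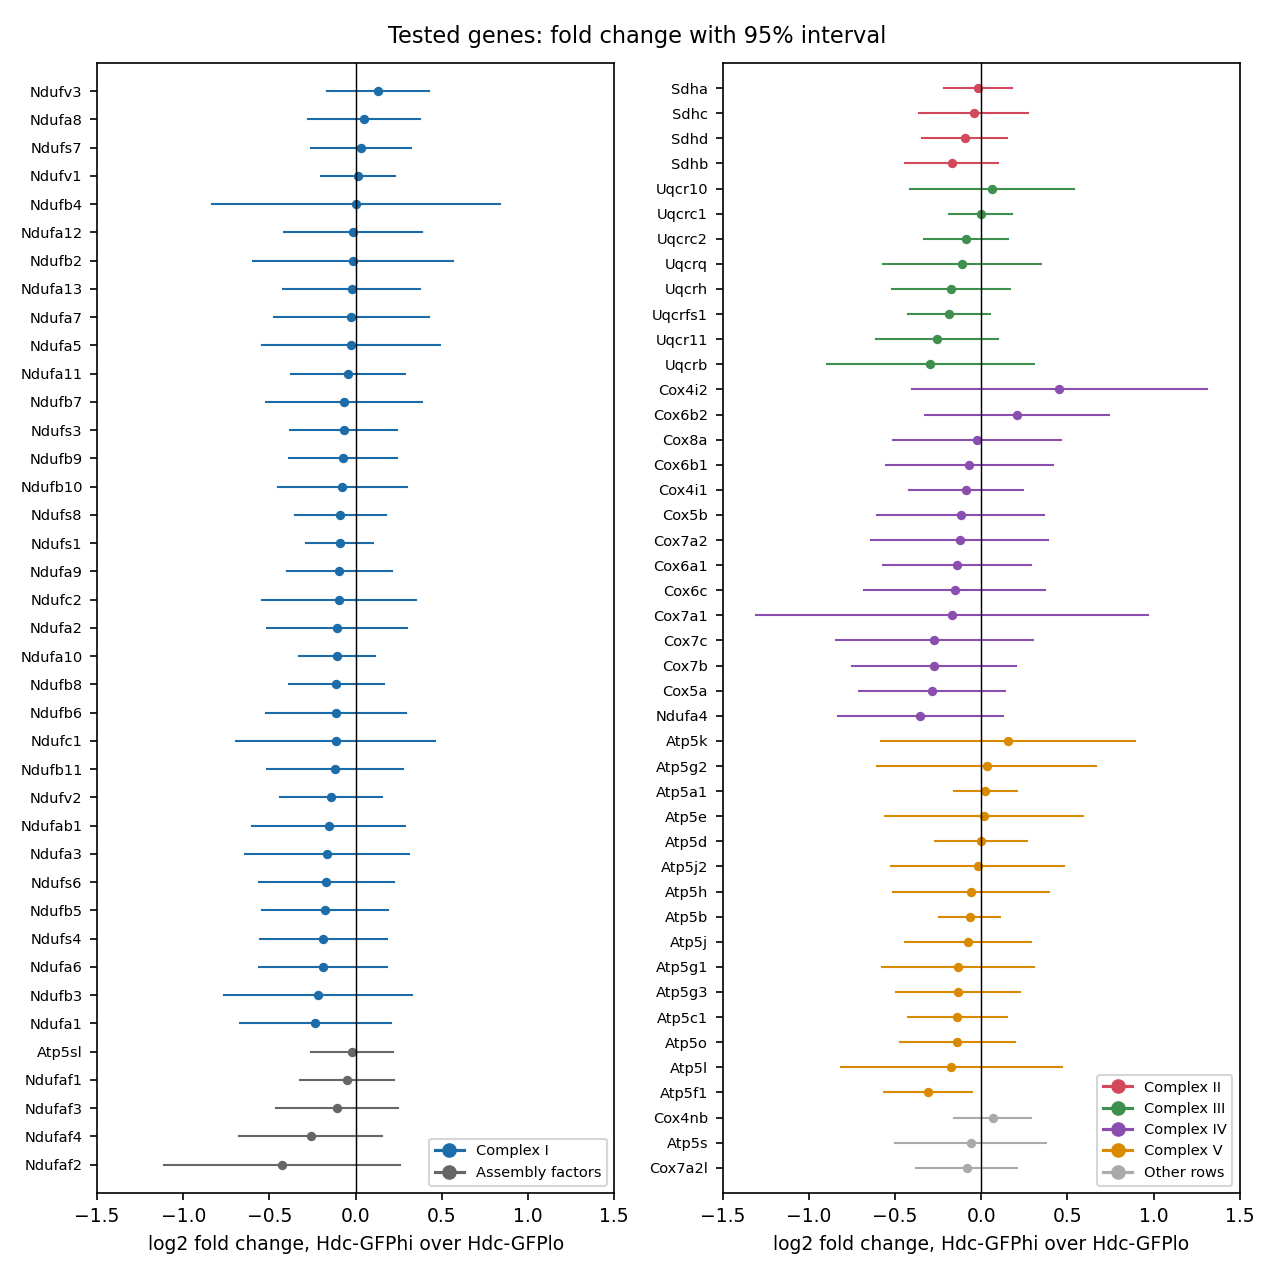
Log2 fold change of Hdc-GFPhi over Hdc-GFPlo cells (x axis) for 83 of the 84 tested genes (rows), grouped by complex. Points are edgeR estimates and lines their 95% intervals, and Atp5f1 is the one gene whose interval does not contain 0.

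Differences between libraries were shared by most of the subunit genes. Relative to each gene's own mean over the 8 libraries, the median of the 84 genes stood at 0.49 (log2 CPM) in Hdc-GFPlo replicate 3 and 0.27 in Hdc-GFPhi replicate 4. It stood at -0.26 in Hdc-GFPhi replicate 2 and -0.18 in Hdc-GFPlo replicate 2, and between -0.08 and -0.05 in the remaining libraries. High and low libraries thus occurred in both groups. Of the 84 genes, 64 had their highest level in Hdc-GFPlo replicate 3 and 15 in Hdc-GFPhi replicate 4, while 48 had their lowest level in Hdc-GFPhi replicate 2 and 13 in Hdc-GFPlo replicate 2. For comparison, 23.2% of the other tested genes were highest in Hdc-GFPlo replicate 3, and the median over all tested genes stayed between -0.01 and 0.02 in every library. In Hdc-GFPhi replicate 4 complex II was an exception, with a median of 0.01 against 0.22 to 0.49 for the other complexes.

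**Figure D2:**
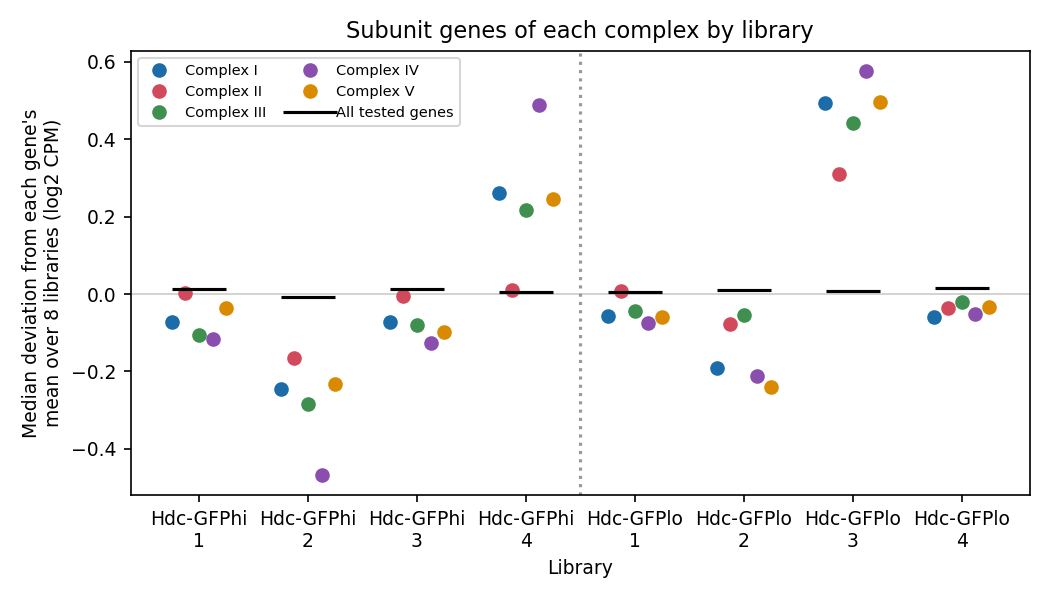
Median deviation of the tested subunit genes of each complex from each gene's own mean over the 8 libraries (y axis, log2 CPM) in each library (x axis), with the median over all tested genes as a black bar. All 5 complexes are above 0 in Hdc-GFPlo replicate 3 and below 0 in Hdc-GFPhi replicate 2.

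The genes moved together from library to library within each group. After subtraction of the group means, the median Pearson correlation of a gene with the median of the other 83 was 0.91 over the 8 libraries, and 77 of 84 were over 0.5. For the other 13216 tested genes the median correlation with the same profile was -0.05, and 26% were over 0.5. Most of those genes have longer transcripts, and the correlation among other genes of like length was not computed. The points share libraries, depth and scaling, so these values are a description. Complex IV genes followed the shared profile most closely, at a median of 0.95 over 14 genes, and assembly factors least, at 0.50 over 5. Atp5a1, the catalytic-ring alpha subunit, was among the looser ones at 0.45.

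The same libraries were highest and lowest by the summed CPM of the subunit genes. The 4 Hdc-GFPhi libraries summed to 10102, 9180, 9751 and 11267 CPM and the 4 Hdc-GFPlo libraries to 10108, 9648, 12973 and 9982 CPM. The groups overlapped, with means of 10075 ± 881 and 10678 ± 1542 and a ratio of 0.944. The ratio was 1.03 without Hdc-GFPlo replicate 3, with the scaling recomputed over the other 7 libraries. Against the mean of the other 6 libraries, Hdc-GFPlo replicate 3 stood at 1.68-fold for complex IV, 1.42-fold for complex I, 1.27-fold for complex III, 1.26-fold for complex V and 1.08-fold for complex II. Hdc-GFPhi replicate 4 gave 1.45-fold, 1.22-fold, 1.11-fold, 1.09-fold and 0.946-fold in the same order. In both libraries the sum for complex IV stood farthest above the other 6 and complex II closest to them. Sdha, which was lowest in these 2 libraries, gave 676 of the mean 1092.5 CPM of complex II in Hdc-GFPhi cells. In Hdc-GFPlo cells it gave 684 of 1136.8 CPM. The sums were not corrected for transcript length, whose part in this order was not tested.

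Transcript length differed between these genes and the rest of the table, and length went with the library differences. The 89 genes have a median transcript length of 763 bases, against 2761 for the tested genes with a length, and 62.9% of them are under 1000 bases, against 7.93%. In Hdc-GFPlo replicate 3 the 51 tested oxidative phosphorylation genes under 1000 bases had a median deviation of 0.54, the 25 from 1000 to under 2000 bases 0.41 and the 7 from 2000 to under 4000 bases 0.18. Among other genes of the same length classes, the values in that library were 0.40, 0.20 and -0.04, and -0.23 at 4000 bases or more. Other short genes were thus high in this library too, at values below those of the oxidative phosphorylation genes of their length class. In Hdc-GFPhi replicate 4 the same classes gave 0.39, 0.09 and 0.02, against 0.20, 0.05 and -0.02 for the other genes. Estimates of the log2 fold change below 0 made up 82.4%, 92% and 85.7% of the oxidative phosphorylation genes in these classes. Among the other genes they made up 63.7%, 53.1% and 49.1%. Under 1000 bases the median estimate was -0.11, against -0.07 for the other genes.

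**Figure D3:**
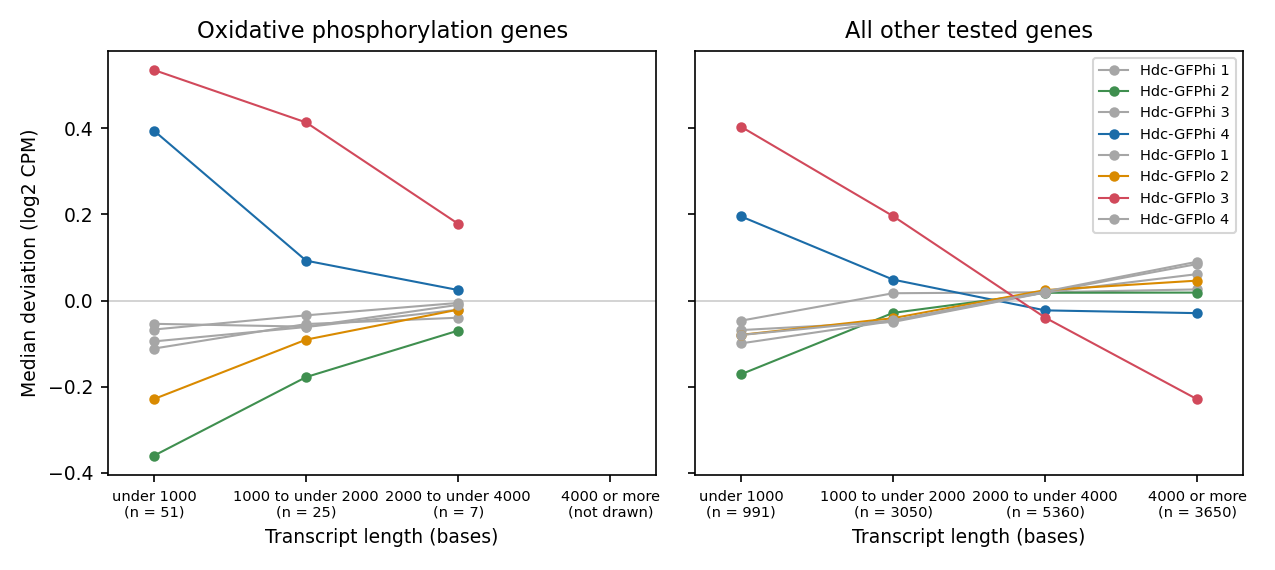
Median deviation from each gene's own mean (y axis, log2 CPM) by transcript length class (x axis, with gene numbers) for oxidative phosphorylation genes (left) and all other tested genes (right), 1 line per library. Under 1000 bases, Hdc-GFPlo replicate 3 is at 0.54 on the left and 0.40 on the right. The single oxidative phosphorylation gene of 4000 bases or more is not drawn.

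When a trend on transcript length and GC content was removed within each library, the median deviation of the 84 genes was 0.16 in Hdc-GFPlo replicate 3 and 0.16 in Hdc-GFPhi replicate 4, and -0.18 and -0.13 in the replicates 2 of Hdc-GFPhi and Hdc-GFPlo. The same 4 libraries thus stood out on the same sides, with smaller values. In the test with this correction the median log2 fold change was -0.03, 56 of 84 estimates were below 0 and 75 intervals lay within 0.5 of 0. Again 0 of the 84 were called. Over all genes in that test the median was 0.01 and 47.2% of estimates were below 0. The part of RNA quality or amplification in the library differences was not tested.

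Complex I, the NADH dehydrogenase, had 35 tested genes of 36 rows, of which 0 were called and 30 had estimates below 0, with a median of -0.09. The core subunits that carry the flavin and the iron-sulfur clusters were among the most closely measured. Ndufv1, which binds the flavin, was at 187, 151, 175 and 169 CPM in the 4 Hdc-GFPhi libraries and at 161, 158, 185 and 171 in the 4 Hdc-GFPlo libraries. The ranges nearly coincide, and the log2 fold change was 0.01 ± 0.10 (SE; 95% interval -0.20 to 0.23). Ndufs1, the largest iron-sulfur subunit, gave -0.09 ± 0.09. The accessory subunit Ndufv3 had the highest estimate of the complex at 0.13 ± 0.14 (adjusted p = 0.822, edgeR), and the membrane-arm subunit Ndufa1 the lowest at -0.23 ± 0.20 (adjusted p = 0.777). By module, the medians were -0.10 for the 8 N-module genes (NADH oxidation), -0.07 for the 8 Q-module genes (coenzyme Q reduction), -0.10 for the 8 tested genes of the proximal membrane arm and -0.09 for the 10 of the distal arm. These medians lie close together, and the acyl carrier protein Ndufab1, the remaining tested gene, gave -0.16 ± 0.20.

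The assembly factors, which build complex I without remaining in it, had 5 estimates below 0 of 5 and a median of -0.11. Ndufaf2 was at 11.0, 10.5, 17.2 and 29.6 CPM in Hdc-GFPhi cells and 20.4, 19.0, 34.2 and 18.4 in Hdc-GFPlo cells. Both groups ranged widely, with Hdc-GFPhi replicate 4 inside the Hdc-GFPlo range and the other 3 Hdc-GFPhi libraries below it. Its log2 fold change was -0.43 ± 0.32 (adjusted p = 0.713, edgeR), and -0.57 ± 0.20 with the 2 high libraries left out, replicate 4 of Hdc-GFPhi and replicate 3 of Hdc-GFPlo (adjusted p = 0.301). Atp5sl, by contrast, lay between 30.8 and 33.2 CPM in all 8 libraries.

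Complex II, succinate dehydrogenase, is shared with the tricarboxylic acid cycle. Its 4 genes had estimates between -0.17 and -0.02, and the 95% interval of each lay within 0.5 of 0. Sdha, the flavoprotein that oxidises succinate, was at 695, 672, 735 and 600 CPM in Hdc-GFPhi cells and 692, 677, 642 and 724 in Hdc-GFPlo cells. In contrast to most subunit genes, its 2 lowest values were in Hdc-GFPhi replicate 4 and Hdc-GFPlo replicate 3, where the median gene was highest. Its log2 fold change was -0.02 ± 0.09. The iron-sulfur subunit Sdhb gave -0.17 ± 0.12.

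Complex III, the cytochrome c reductase, had 7 of 8 estimates below 0 and a median of -0.14. Uqcrc1, a core protein of the complex, was at 686, 618, 612 and 608 CPM in Hdc-GFPhi cells and at 623, 604, 661 and 638 in Hdc-GFPlo cells, with a log2 fold change of 0.00 ± 0.08 (95% interval -0.18 to 0.18). Uqcrfs1, the Rieske iron-sulfur protein that hands electrons toward cytochrome c, gave 186, 188, 194 and 203 CPM against 204, 206, 268 and 198. The groups overlapped through the lowest Hdc-GFPlo library, and the log2 fold change was -0.18 ± 0.11 (adjusted p = 0.617, edgeR). The small subunit Uqcrb had the lowest estimate at -0.29 ± 0.28, and Uqcr10 the highest at 0.06 ± 0.22. For Uqcrb, Hdc-GFPlo replicate 3 was at 106 CPM and the other 3 Hdc-GFPlo libraries between 54.5 and 57.5. The 4 Hdc-GFPhi libraries were at 37.2, 41.3, 57.5 and 87.5 CPM, the last being replicate 4. With that library and Hdc-GFPlo replicate 3 left out, the log2 fold change of Uqcrb was -0.29 ± 0.15 (adjusted p = 0.506, edgeR).

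Complex IV, cytochrome c oxidase, had 14 tested genes of 17 rows, with 12 estimates below 0 and a median of -0.13. Ndufa4, a subunit first assigned to complex I, was at 135, 101, 158 and 214 CPM in Hdc-GFPhi cells and at 172, 153, 275 and 178 in Hdc-GFPlo cells. It had the lowest estimate of the complex, -0.35 ± 0.22 (95% interval -0.83 to 0.13, adjusted p = 0.643, edgeR), and -0.34 ± 0.14 with the same 2 high libraries left out (adjusted p = 0.39). With the length and GC trend removed it was -0.15 ± 0.12. Cox5a, a nuclear subunit on the matrix side, gave -0.29 ± 0.19 and Cox4i1, the widely expressed isoform of subunit IV, -0.09 ± 0.15.

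Several complex IV subunits have tissue-restricted paralogues, and the widely expressed form was the higher one for each set. On the scale of mean CPM per kb of transcript over all 8 libraries, Cox4i1 was at 438 and Cox4i2, known from lung, at 2.58. Cox6b1 was at 136 and Cox6b2, known from testis, at 27.2. Cox7a2 was at 81.0 and Cox7a1, the heart and muscle form, at 1.49. Cox7b was at 47.5 and Cox8a at 179, while Cox7b2 and Cox8c had no count and Cox8b 0.069. Neither tested restricted form with an estimate above 0 passed the test: Cox4i2 gave 0.45 ± 0.39 and Cox6b2 0.21 ± 0.25. Cox6a2, the muscle form of subunit VIa that the rule leaves out, was lower in Hdc-GFPhi cells, at 0.63 ± 0.35 CPM against 4.57 ± 0.73 (log2 fold change -2.85 ± 0.41, adjusted p = 0.00507, edgeR).

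Complex V had 15 tested genes, 0 called, 11 estimates below 0 and a median of -0.07. In the F1 head, where ATP is made, Atp5b, the catalytic beta subunit, was at 1434, 1375, 1361 and 1384 CPM in Hdc-GFPhi cells and at 1448, 1390, 1594 and 1388 in Hdc-GFPlo cells. All 8 values lie close together apart from the 1594 of Hdc-GFPlo replicate 3, and the log2 fold change was -0.07 ± 0.08 (95% interval -0.25 to 0.11). Atp5a1, the alpha subunit, gave 0.02 ± 0.08. Another F1 subunit, Atp5e, was less closely measured, at 0.02 ± 0.26 (95% interval -0.56 to 0.59). In the membrane part, the accessory subunit Atp5k had the highest estimate at 0.16 ± 0.34.

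Atp5f1, subunit b of the peripheral stalk that holds the head against rotation, was the one gene whose groups did not overlap. It was at 228, 225, 256 and 235 CPM in Hdc-GFPhi cells and at 276, 266, 366 and 260 in Hdc-GFPlo cells. The highest Hdc-GFPhi value and the lowest Hdc-GFPlo value lie close together, and Hdc-GFPlo replicate 3 stands above all others. The log2 fold change was -0.31 ± 0.12 (95% interval -0.56 to -0.05, adjusted p = 0.329, edgeR). It was -0.24 ± 0.08 with the length and GC trend removed (adjusted p = 0.167) and -0.17 ± 0.08 with the same 2 high libraries left out (adjusted p = 0.474). The other 3 stalk genes gave estimates between -0.14 and -0.06.

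The 4 other rows share only the naming or a looser tie to the complexes. Cox7a2l, a factor that joins complexes III and IV into supercomplexes, gave a log2 fold change of -0.08 ± 0.14, Atp5s, a coupling factor of the ATP synthase, -0.06 ± 0.20 and Cox4nb, which encodes a part of the endoplasmic reticulum membrane complex and no respiratory subunit, 0.07 ± 0.10. Ndufa4l2, the paralogue of Ndufa4, had no count.

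As a description of sequence, 3 promoters are shown: those of Atp5f1, of Atp5j, another stalk subunit, and of Cox6a1, the widely expressed subunit VIa. They hold motifs of factors known to act at such genes. The part of these factors in the library differences was not tested. Promoter windows of 300 bases (250 before and 50 after the start, RefSeq, GRCm38.p6) were matched for 74 of the 89 genes, in 80 windows. Capitals mark matches, on either strand, to GCGCATGC (from the NRF1 motif), CCGGAAG (an ETS motif, as bound by GABP), AAGATGGC (the YY1 motif) and the palindrome CTCGCGAG, which was searched after the Atp5f1 window was seen. Atp5j has another RefSeq window, which holds none of these motifs and is not shown. In Cox6a1, NRF1 matches on the 2 strands overlap.
Atp5f1 (chr3:105959214-105959513, minus strand): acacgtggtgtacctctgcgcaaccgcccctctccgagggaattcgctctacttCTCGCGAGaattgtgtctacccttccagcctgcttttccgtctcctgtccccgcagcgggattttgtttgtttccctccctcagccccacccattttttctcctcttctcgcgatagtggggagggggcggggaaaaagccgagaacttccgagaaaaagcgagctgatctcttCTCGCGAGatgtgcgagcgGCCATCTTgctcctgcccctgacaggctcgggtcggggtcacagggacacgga
Atp5j (chr16:84834927-84835226, minus strand): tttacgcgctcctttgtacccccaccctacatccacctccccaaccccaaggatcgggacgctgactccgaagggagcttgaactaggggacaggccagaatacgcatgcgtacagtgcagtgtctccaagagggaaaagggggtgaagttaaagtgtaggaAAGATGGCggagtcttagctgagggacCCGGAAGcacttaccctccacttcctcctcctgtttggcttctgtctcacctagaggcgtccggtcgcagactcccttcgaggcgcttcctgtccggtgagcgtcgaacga
Cox6a1 (chr5:115348909-115349208, minus strand): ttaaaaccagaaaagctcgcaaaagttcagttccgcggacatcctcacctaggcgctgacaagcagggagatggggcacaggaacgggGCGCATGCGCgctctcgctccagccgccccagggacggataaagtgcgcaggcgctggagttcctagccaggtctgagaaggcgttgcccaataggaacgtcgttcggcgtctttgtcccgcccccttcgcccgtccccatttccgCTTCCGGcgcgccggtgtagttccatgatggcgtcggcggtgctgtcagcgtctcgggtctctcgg

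Atp5f1 holds a YY1 match and 2 of the palindrome, the Atp5j window shown an ETS and a YY1 match, and Cox6a1 NRF1 and ETS matches. Over the 80 windows, 13.8% held the NRF1 motif, against 2.71% of all 32851 RefSeq windows of this length. The ETS motif was in 21.2% against 8.86% and the YY1 motif in 15% against 2.75%. The palindrome was in 4 windows (5%, against 0.919%): those of Atp5f1 and Ndufa11, and 2 overlapping windows of Ndufa7 that hold the same site. Because it was picked from the Atp5f1 window, which is counted here, its share cannot be compared with that of all windows. Some genes have more than 1 window, and a match is a description of the sequence only. Of the factors, Nrf1 gave a log2 fold change of 0.10 ± 0.11, Gabpa -0.13 ± 0.11 and Yy1 -0.37 ± 0.18 (adjusted p = 0.841, 0.781 and 0.474, edgeR).

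Levels differed widely between subunits of the same complex, although the assembled complexes hold most of them in equal number. Per kb of transcript, the highest mean levels were 742 CPM per kb for Atp5b, 438 for Cox4i1, 390 for Atp5c1, 382 for Uqcrc1 and 372 for Atp5a1. The lowest among widely expressed subunits were 0 for Ndufs5, 3.12 for Ndufb4, 5.89 for Atp5g2, 8.67 for Atp5l and 11.1 for Cox7c. Each of these 5 shares much of its sequence with pseudogenes: of all 50-base stretches of the transcript, 41.2% for Ndufs5, 37% for Ndufb4, 100% for Atp5g2, 68.5% for Atp5l and 53% for Cox7c also occur in an annotated pseudogene (GENCODE M21). How reads that fit several places were counted was not given in the sources used, so the levels of these genes are uncertain, and the part of shared sequence in them was not tested. Over the 74 widely expressed subunits, the 10 with more than 30% of shared stretches had a median of 12.02 CPM per kb and the other 64 a median of 118.3, with the dividing value chosen after the levels were seen. Not all genes with many shared stretches were low: Uqcrb, with 43.2% shared, was at 116 CPM per kb and Atp5h, with 50.5%, at 74.3.

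**Figure D4:**
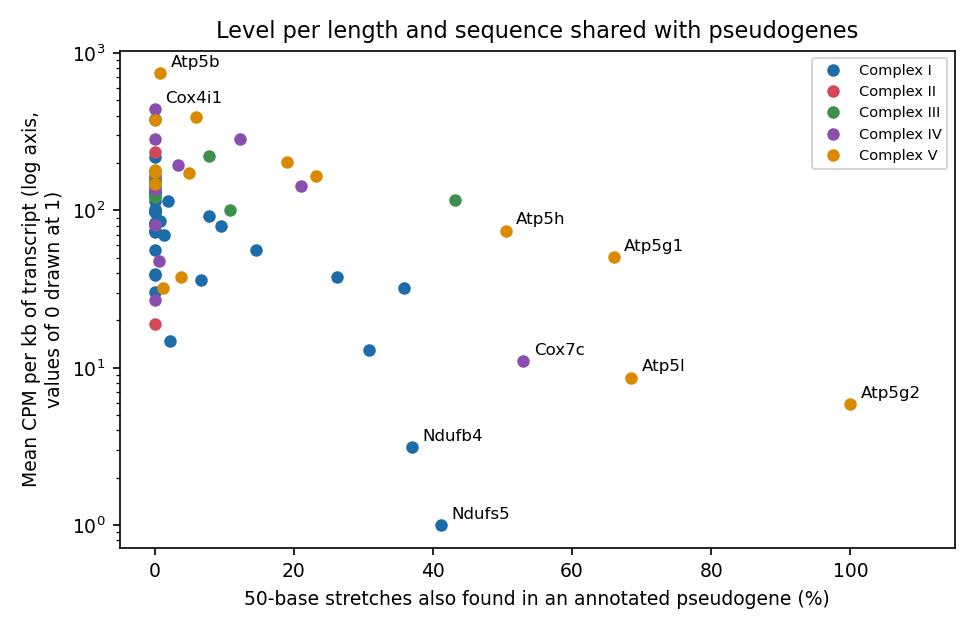
Mean CPM per kb of transcript over 8 libraries (y axis, log scale, 0 drawn at 1) against the share of 50-base stretches also found in an annotated pseudogene (x axis, percent) for the 74 widely expressed subunits, 1 point per gene. The 5 genes with the lowest levels, from Ndufs5 at 0 to Cox7c at 11.1, have shares between 37% and 100%.

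Ndufs5, a complex I subunit of the proximal membrane arm, is the extreme case. It had 0 counts in all 8 libraries, while the row BC002163, a processed pseudogene on chromosome 16 (chr16:42955631-42955949, plus strand, GRCm38), had 342, 260, 334 and 499 counts in Hdc-GFPhi cells and 360, 224, 378 and 260 in Hdc-GFPlo cells. Its whole 319 bases align without a gap to bases 93 to 411 of the Ndufs5 transcript (gene at chr4:123712710-123718202, minus strand) and differ at 2 of them. The first 120 of these bases, from the start codon of Ndufs5, hold both differences and are shown with the differing bases in capitals.
Ndufs5: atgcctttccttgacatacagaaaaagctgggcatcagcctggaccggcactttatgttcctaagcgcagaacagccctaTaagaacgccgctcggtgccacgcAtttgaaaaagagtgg
BC002163: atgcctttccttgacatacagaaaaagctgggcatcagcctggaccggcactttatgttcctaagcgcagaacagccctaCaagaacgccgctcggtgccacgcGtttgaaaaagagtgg

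Whether the BC002163 counts come from Ndufs5 transcripts was not tested. For Cox7c, the pseudogene that shares most stretches, Gm10012 (36.7%), had 1 to 5 counts per library, against 85 to 180 for Cox7c. The BC002163 row was not called, at 16.1 CPM in Hdc-GFPhi cells and 15.8 in Hdc-GFPlo cells (log2 fold change 0.03 ± 0.21, adjusted p = 0.984, edgeR). Its highest CPM was that of an Hdc-GFPhi library. For the c subunit of complex V, which 3 genes encode as the same mature protein, Atp5g3 was at 175 CPM per kb, Atp5g1 at 50.6 and Atp5g2 at 5.89. The order is uncertain, since 66% of the Atp5g1 stretches and 100% of those of Atp5g2 are shared with pseudogenes.

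The neighbouring mitochondrial pathways, taken from lists outside the symbol rule, also had small estimates. Of 76 mitochondrial ribosomal protein genes 0 were called, with a median log2 fold change of -0.07 and 54 estimates below 0. Of 17 tricarboxylic acid cycle genes 0 were called, with a median of -0.10, 14 below 0 and every 95% interval within 0.5 of 0. The medians were -0.05 for 32 further assembly factors, -0.03 for 11 genes of coenzyme Q synthesis, -0.12 for 5 subunits and carriers named outside the rule, and 0.04 for 20 regulators of mitochondrial biogenesis, with 0 called in each by edgeR. At an unadjusted p under 0.05 stood 1 mitochondrial ribosomal gene, 1 gene of coenzyme Q synthesis and 0 of the other 4 lists. The groups did not overlap for 3 genes of these lists, against the background of 6.92%: Coq10b, Taco1 and Gabpb1. Taco1, a factor for translating a complex IV subunit, gave 0.25 and Gabpb1, a partner of Gabpa, -0.17. Coq10b, a coenzyme Q chaperone, was at 10.2 ± 1.11 CPM against 14.4 ± 1.29 (log2 fold change -0.49 ± 0.16, adjusted p = 0.223, edgeR). The mitochondrial ribosomal genes shared the library pattern: Hdc-GFPlo replicate 3 stood at 1.401-fold the mean of the other 6 libraries and Hdc-GFPhi replicate 4 at 1.197-fold. For the tricarboxylic acid cycle genes the values were 1.08-fold and 0.968-fold.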

How the data were processed

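RNA from sorted LSK cells was sequenced in 8 libraries, 4 per group. The deposited values are raw read counts per gene symbol; they were made on the mm9 build with HTSeq 0.6.1, TopHat2 2.04, Bowtie2 and bcl2fastq 1.8.4, as named in the submitters' processing notes. Settings, annotation and strand were not given in the sources used. Counts were tested with edgeR 4.0.16 in R 4.3.3 (trimmed-mean factors, default expression filter, robust quasi-likelihood test, Benjamini-Hochberg adjustment over 13300 genes, threshold 0.05). Deviations between libraries used log2 CPM after adding 2 to each count. No 2 libraries of a group agreed within counting noise. Alternatives were DESeq2 1.42.0, limma 3.58.1 with voom, other scalings and filters, a replicate block, leaving out libraries, and offsets that remove a loess trend on transcript length and GC content. Lengths and shared 50-base stretches came from GENCODE M21 (the shortest best-supported transcript) and promoters from RefSeq, both of a later build than mm9, so only sequences and their own coordinates were used.

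The genes and all lists were chosen with earlier results of these data known. Named genes are, in each complex and among assembly factors, those with the highest and lowest estimate and the smallest p at a mean count of at least 50, core subunits, paralogue sets, rows that encode no subunit, and up to 3 genes per outside list. Ndufs5, Ndufb4, Atp5l, Cox7c, Gm10012, Atp5c1, Atp5e, Atp5j and Cox6a1 were named after their values were seen. A core subunit and a lineage gene that the rule names are not reported here. The other lists were cycling genes (15 tested, 0 called), erythroid (3 tested, 0 called), stromal (2 tested, 0 called), lineage (5 tested, 0 called) and LSK gate genes (6 tested, 0 called). These calls are those of the main edgeR test, and some genes of these lists were called in other settings. On simulated counts for 13184 genes, a log2 change of 0.5 was called for 32% of the altered genes, a change of 1 for 92% and a change of 2 for 100%. The simulation altered 50 genes at each size, up to 4, and drew genes independently, with no library differences shared between them. Its shares may thus not carry over to the oxidative phosphorylation genes, which moved together.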

Additional observations from a re-analysis of the deposited data

Results flagged for a closer look

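In 76 comparisons of the 4 libraries of a group, over the named genes and the summed CPM of each complex, 9 had 1 library farther from the others than Dixon's limit for 4 samples allows. Chance passes this limit in about 5% of groups, and the genes are not independent, since they moved together. Some were also named for a low estimate or small p in these same values, so the 5% cannot serve as a fair comparison. In 8 of the 9 the library was Hdc-GFPlo replicate 3. There, Uqcrb was at 106 CPM (54.5 to 57.5 in the other 3), Uqcrfs1 at 268 (198 to 206), Cox6b2 at 16.6 (9.65 to 10.6), Atp5f1 at 366 (260 to 276) and Ndufaf2 at 34.2 (18.4 to 20.4). The summed CPM in that library was 3694 for complex I (2522 to 2706 in the other 3), 1694 for complex III (1334 to 1369) and 4641 for complex V (3692 to 3770). The ninth was Uqcrc1 in Hdc-GFPhi replicate 1, at 686 CPM against 608 to 618. What sets Hdc-GFPlo replicate 3 apart was not tested.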

How the results depend on the processing

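In every setting run, 0 of the oxidative phosphorylation genes were called, and their smallest adjusted p ran from 0.167 to 0.574. The count over all genes moved from 126 to 404 with DESeq2, 278 with limma, 256 with the length and GC trend removed, 275 with replicates 1 and 2 set against 3 and 4 as a covariate (chosen after seeing the data), and 52 to 146 when 1 library was left out. The lowest of these was without Hdc-GFPlo replicate 1, and 68 were called without Hdc-GFPhi replicate 3. With the replicate number as a block it was 224, and the median of the oxidative phosphorylation genes was -0.09. No label ties same-numbered libraries together, and their deviations correlated at 0.259, 0.347, 0.075 and 0.1, so the block is given only here; whether they share a day or batch was not tested.

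The 39 intervals within 0.5 of 0 became 67 with limma, 75 with the trend removed, 68 with both high libraries left out, replicate 4 of Hdc-GFPhi and replicate 3 of Hdc-GFPlo (chosen after seeing the data), and 26 to 53 with 1 library left out. Estimates below 0 numbered 21 to 78, and the median ran from -0.22 to 0.07, when 1 library was left out. The value above 0 was without Hdc-GFPlo replicate 3. The summed ratio ran from 0.908 to 1.03. Most of the genes were highest in that library; the cause of the shifts was not tested. In the simulated counts, with 4 libraries per group, changes of 0.5 on the log2 scale were mostly not called.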
